A study of Mus musculus with 10 samples.

Results

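Transgelin (Tagln) and the other contractile genes described here were 10 genes: the transgelins Tagln and Tagln2, the muscle actins Acta1, Acta2 and Actg2, the calponins Cnn1 and Cnn2, the tropomyosins Tpm1 and Tpm2, and the myosin light chain gene Myl9. They were 10 of the 30677 genes in the count table, listed by name and selected for their levels in MB-3 against DMSO and for rising and falling together across cultures, so values of that contrast and of that covariation are given for these genes as a description and support no claim, the counts of calls included. The cells were TNGA cells, a single line of mouse embryonic stem (ES) cells that carries a GFP reporter at 1 allele of Nanog, grown in serum and LIF (leukaemia inhibitory factor, the cytokine that keeps mouse ES cells undifferentiated). The DMSO group received vehicle and the MB-3 group 100 µM MB-3, a small-molecule inhibitor of the histone acetyltransferase Kat2a (Gcn5), for 48 hours, and the cultures of both groups contained 0.1% DMSO by volume. PolyA RNA was sequenced from 3 cultures per treatment, named A, B and C in each group, and chromatin carrying acetylated lysine 9 of histone H3 (H3K9ac) was mapped in duplicates merged into 1 peak list per treatment.

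Actin filaments bound to tropomyosin and pulled by myosin II generate tension in cells. Transgelin and calponin are related actin-binding proteins, and together with alpha smooth muscle actin (Acta2) they are the usual markers of smooth muscle and of myofibroblasts. Many of these genes carry CArG boxes, the binding motif of serum response factor (SRF), which is activated through its coactivators Mrtfa and Mrtfb when free actin monomers are depleted, as happens when cells spread or form stress fibres.

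The RefSeq promoter table (GRCm38.p6, 250 bases before to 50 after the start of each gene, shown in the direction of transcription) held 8 of the 10 genes, with no entry for Tagln and Actg2. The 10-letter CArG box was searched as CC, then only A or T, then GG, with no mismatch allowed. The search took both strands, where the box reads alike. The box was found in 3 of the 8 promoters (37.5%), against 488 of the 27025 genes in the table (1.81%). Among the other contractile genes with an entry, 7 of the 41 (17.1%) held it: Actc1, Actg1, Fhl1, Fhl2, Myl6, Srf and Vcl. The 3 sequences are shown because they are the ones in which the box stands. Capitals mark the box, whose first base lies 73 bases before the start of Acta1, 56 before that of Cnn2 and 161 before that of Myl9. They span chr8:123894726-123895025 on the minus strand, chr10:79988350-79988649 on the plus strand and chr2:156775214-156775513 on the plus strand.
Acta1: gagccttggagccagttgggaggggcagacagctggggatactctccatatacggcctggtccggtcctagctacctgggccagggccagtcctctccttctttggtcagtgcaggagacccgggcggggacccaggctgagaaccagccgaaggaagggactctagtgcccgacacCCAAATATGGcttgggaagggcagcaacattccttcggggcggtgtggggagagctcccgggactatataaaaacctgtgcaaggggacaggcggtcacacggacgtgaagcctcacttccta
Cnn2: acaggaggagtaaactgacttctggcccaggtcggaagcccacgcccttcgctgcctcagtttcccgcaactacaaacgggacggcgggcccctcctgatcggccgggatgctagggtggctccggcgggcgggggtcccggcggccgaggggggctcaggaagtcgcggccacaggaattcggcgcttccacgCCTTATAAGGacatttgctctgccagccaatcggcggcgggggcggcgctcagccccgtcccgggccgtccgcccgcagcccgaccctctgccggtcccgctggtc
Myl9: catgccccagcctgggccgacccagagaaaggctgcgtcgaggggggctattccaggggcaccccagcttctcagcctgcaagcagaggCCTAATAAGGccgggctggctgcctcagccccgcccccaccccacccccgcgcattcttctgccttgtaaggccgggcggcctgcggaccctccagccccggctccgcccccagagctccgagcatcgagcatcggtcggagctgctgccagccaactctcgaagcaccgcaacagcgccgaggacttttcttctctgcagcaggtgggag
A match describes these letters only. The promoters of Tagln2, Acta2, Cnn1, Tpm1 and Tpm2 held no exact match in the same window. Near matches were not counted: the Acta2 promoter holds ccctatatgg and ccttgtttgg, each a single letter away from the pattern. The absence of an exact match therefore does not show that a promoter lacks a CArG box.

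The libraries held 46863700 to 51137896 counts in DMSO and 42270312 to 49334434 in MB-3. Markers of ES cells (8 genes, among them Pou5f1, Nanog, Sox2 and Esrrb) summed to 3361 to 3629 CPM in DMSO and 3452 to 3617 CPM in MB-3 (CPM is the gene's count scaled to 1000000 counts of library size, normalised by TMM), so the markers of the labelled cell type stood at like levels in both groups. Of the 8 smooth muscle markers, Myh11 stood at 0.85 to 1.31 CPM and Myocd at 0 to 0.10 CPM over the 6 libraries, while Smtn stood at 27.8 to 32.4 CPM and Des at 8.35 to 9.84 CPM. The skeletal muscle factors Myod1 and Myog did not exceed 0.09 CPM. As this is bulk RNA, fewer cells that express a gene and less of its RNA per cell cannot be told apart.

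Per kilobase of exon, Tagln2 was the most abundant of the 10 genes in DMSO, at 64.6 ± 10.6 RPKM (RPKM is CPM divided by the merged exon length in kilobases, SD, n = 3), and Actg2 the least. Between them stood Cnn2 (44.3 ± 11.1 RPKM), Tpm1 (34.7 ± 12.2 RPKM), Tagln (22.9 ± 15.7 RPKM), Acta2 (14.5 ± 3.89 RPKM), Acta1 (12.9 ± 2.17 RPKM), Tpm2 (7.63 ± 0.97 RPKM), Myl9 (4.12 ± 1.82 RPKM) and Cnn1 (2.465 ± 1.497 RPKM). Tagln2 was set apart from Cnn2, Acta1 from Tpm2, Tpm2 from Myl9 and Cnn1 from Actg2, in that no library of the higher gene fell within the range of the lower. The other neighbours overlapped: Tagln ranged from 9.71 RPKM in culture B to 40.2 RPKM in culture C and so spanned the levels of Acta2 and Acta1. In MB-3 the order of the levels was that of DMSO for the first 3 and the last 4 genes, while Acta1 (11.6 ± 1.30 RPKM), Acta2 (10.1 ± 1.43 RPKM) and Tagln (8.63 ± 4.78 RPKM) stood in the reverse of their DMSO order, with overlapping libraries.

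Tagln encodes transgelin (SM22 alpha), which cross-links actin filaments, and lies at chr9:45929619-45936058 on the minus strand (GRCm38). Cnn1 (chr9:22099216-22109630) and Tpm1 (chr9:67022590-67049406) are on the same chromosome but far from it, and the other 7 genes lie on 7 other chromosomes. The level of Tagln in DMSO was 37.2 CPM in A, 19.3 CPM in B and 79.9 CPM in C, and in MB-3 it was 14.5 CPM in A, 9.25 CPM in B and 27.7 CPM in C. Each MB-3 culture lay below the DMSO culture of its own letter, and yet the groups overlapped, because MB-3 C stood above DMSO B. The mean went from 45.5 ± 31.2 CPM with vehicle to 17.2 ± 9.51 CPM with MB-3 (SD, n = 3), with a log2 fold change of -1.41 (SE 0.42) in the fit with treatment only. With the replicate letter as a block, which compares cultures of the same letter, it was -1.35 (SE 0.07), so that the estimate hardly moved and its error became smaller. Within letters the log2 difference was -1.35 in A, -1.05 in B and -1.525 in C. The SE comes from the fit, which shares information on spread between genes, so it does not measure the spread of these 3 differences alone. Exons of the antisense gene Gm48529 cover 62.4% of the Tagln exons and those of Pcsk7, also on the opposite strand, 5.43%. Whether counting used the strand is not stated, so reads of Tagln and of Gm48529 cannot be told apart here. Pcsk7 itself stood at 11.6 to 12.7 CPM in DMSO and 12.2 to 12.7 CPM in MB-3. No other of the 10 genes has an exon overlapped by another gene, and stretches of 50 bases shared with transcripts of other genes made up at most 2.02% of any of them (Acta1, shared with Gm47692).

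Tagln2, a relative of transgelin that is expressed in many cell types other than muscle, was the only one of the genes whose groups did not overlap. It stood at 123 CPM, 120 CPM and 160 CPM in DMSO A, B and C, against 95.8 CPM, 97.1 CPM and 116 CPM in MB-3. Its log2 fold change was -0.38 (SE 0.10), with the same value under the block (SE 0.05).

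**Figure D1:**
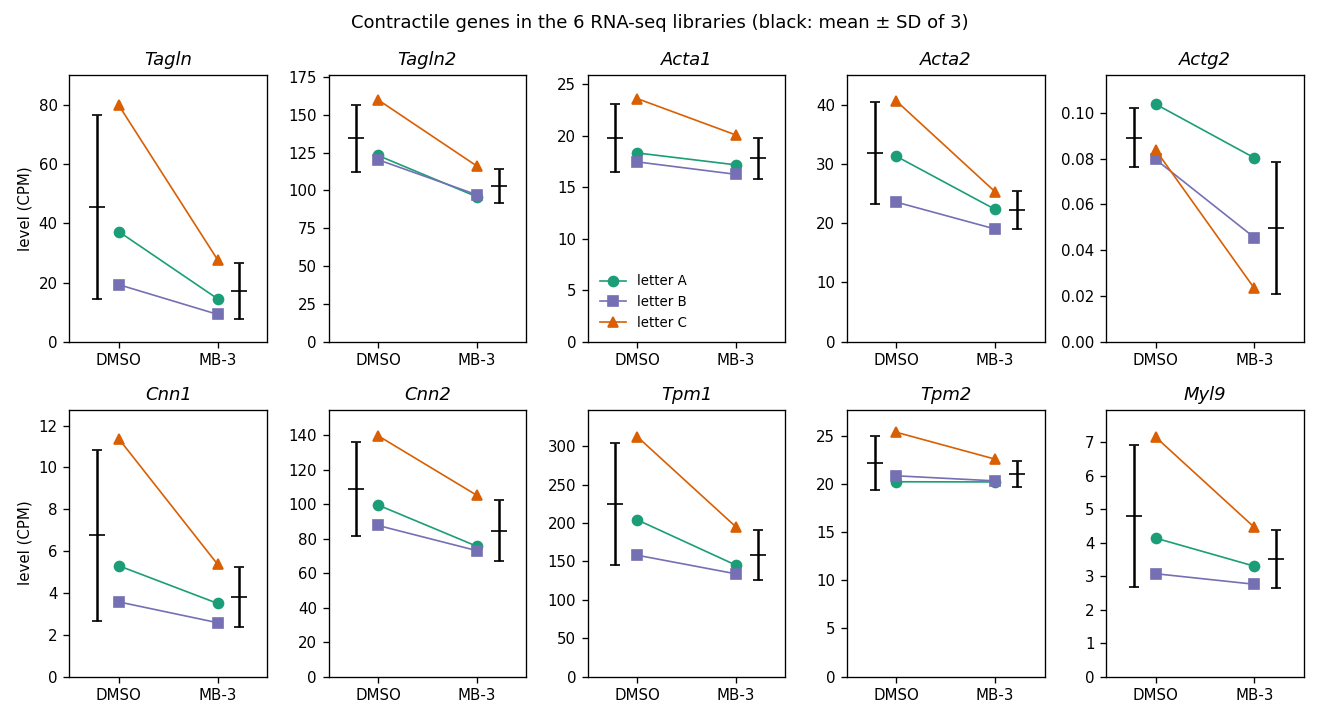
Level of each of the 10 genes in CPM (vertical axes, each from 0) in DMSO and MB-3, with lines joining cultures of the same letter and black bars giving mean ± SD of 3 libraries. In all genes but Actg2 culture C is the highest in both groups, and the lines of Tagln go from 79.9 to 27.7 CPM in C and from 19.3 to 9.25 CPM in B.

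Of the muscle actins, Acta2 (alpha smooth muscle actin) had a larger fold change than Acta1 (alpha skeletal actin). Acta2 was at 31.3 CPM, 23.6 CPM and 40.6 CPM in DMSO A, B and C, and at 22.3 CPM, 19.0 CPM and 25.3 CPM in MB-3. All 3 letters were lower in MB-3, but MB-3 C exceeded DMSO B. The log2 fold change was -0.52 (SE 0.16), and -0.50 (SE 0.06) under the block. Acta1 was at 18.3 CPM, 17.5 CPM and 23.6 CPM in DMSO and at 17.2 CPM, 16.3 CPM and 20.1 CPM in MB-3, for a log2 fold change of -0.15 (SE 0.11; SE 0.07 under the block). Actg2 (gamma smooth muscle actin) had 4 to 5 counts per library in DMSO and 1 to 4 in MB-3, and did not pass the filter on low counts. Muscle actins, with Actc1 counted among them, were a small part of all actin: they gave 2.59%, 1.99% and 3.11% of the counts of the 6 actin genes in DMSO A, B and C, and 2.15%, 1.86% and 2.09% in MB-3. The cytoplasmic actins Actb and Actg1, which make up nearly all of it, had log2 fold changes of 0.00 (SE 0.05) and -0.07 (SE 0.04) under the block.

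The calponins bind actin and tropomyosin and restrain actomyosin. Cnn1, the smooth muscle form, stood at 5.30 CPM, 3.57 CPM and 11.4 CPM in DMSO A, B and C and at 3.50 CPM, 2.57 CPM and 5.36 CPM in MB-3. Its log2 fold change of -0.82 (SE 0.35), or -0.76 (SE 0.12) under the block, was second in size to that of Tagln with all libraries in the fit. Without DMSO C it was -0.22, smaller in size than that of Acta2 (-0.30) or Tagln2 (-0.24). The difference was largest in size in culture C: within letters the log2 difference was -0.59 in A, -0.46 in B and -1.07 in C. Cnn2, the form found in many cell types, was at 99.6 CPM, 87.7 CPM and 139.8 CPM in DMSO and 75.6 CPM, 73.1 CPM and 105.2 CPM in MB-3, with a log2 fold change of -0.37 (SE 0.16; -0.36, SE 0.05, under the block).

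Tropomyosins line the actin filament and govern the access of myosin to it. Tpm1 had the highest CPM of the 10 genes, at 204 CPM, 158 CPM and 312.5 CPM in DMSO A, B and C and 145 CPM, 133.7 CPM and 194.8 CPM in MB-3. Its log2 fold change was -0.51 (SE 0.19), and -0.47 (SE 0.05) under the block. Tpm2 had the smallest fold change of the 9 genes tested. It stood at 20.3 CPM, 20.9 CPM and 25.4 CPM in DMSO and at 20.3 CPM, 20.4 CPM and 22.6 CPM in MB-3, with a log2 fold change of -0.08 (SE 0.09; -0.07, SE 0.06, under the block). Myl9, the regulatory light chain through which smooth muscle myosin is switched on, was at 4.13 CPM, 3.07 CPM and 7.15 CPM in DMSO and 3.30 CPM, 2.76 CPM and 4.45 CPM in MB-3, for a log2 fold change of -0.45 (SE 0.26; -0.42, SE 0.13, under the block). Without DMSO C the value for Myl9 was -0.04.

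Of the 9 genes that passed the filter on low counts, 0 had an adjusted p under 0.05 in edgeR's quasi-likelihood test with treatment only. At that threshold 0.205% of all genes tested were called in either direction. Unadjusted, 6 of the 9 had a p under 0.05 in that test, and the share of all genes under it was not counted. DESeq2 with treatment only called 1, Tagln2, where 1.04% of all genes tested were called. With the replicate letter as a block, 7 of the 9 were called lower, that is all but Acta1 and Tpm2, where 3.9% of all genes were called lower. Only Tagln2 had no overlap between groups (7.37% of all genes had none, with MB-3 lower). All 9 were below DMSO in each of the 3 letters (20.3% of all genes), though Tpm2 in letter A by a log2 difference of only -0.001. The genes were chosen on this contrast, so these counts describe the choice and are not evidence for it. The median log2 fold change over the 9 was -0.45, or -0.42 under the block, and over all genes -0.001 in either fit. It rested in part on single libraries: without DMSO C the median was -0.20, and Tpm2 stood at 0.03. Without DMSO B the median was -0.69, with 5 of the 9 called (Acta2, Cnn1, Tagln, Tagln2 and Tpm1). That fit called 2.55% of all genes tested, against 0.205% with all libraries. Without DMSO C, Tpm1 was at -0.20, Cnn2 at -0.15 and Acta1 at -0.006. Of the 7 called under the block, Myl9 was not called in DESeq2 with the block, nor without letter A or without letter C in both groups. Tagln itself lay between -0.72 without DMSO C and -1.93 without MB-3 C, and was -1.78 without DMSO B.

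**Figure D2:**
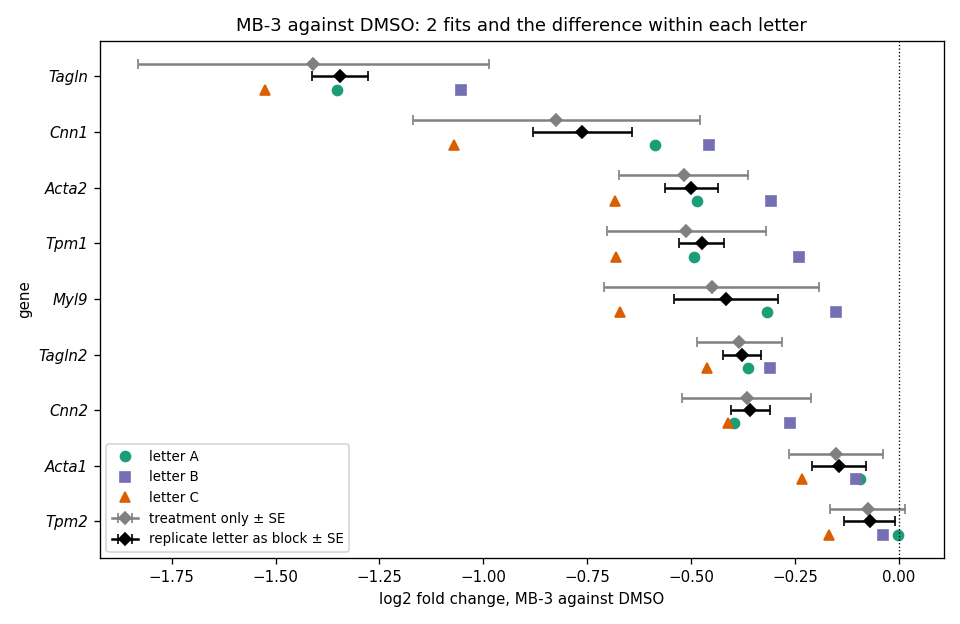
Log2 fold change of MB-3 against DMSO (horizontal axis) for the 9 genes that passed the filter, with diamonds and bars for the estimate ± SE of the fits without (grey) and with (black) the replicate letter, and coloured points for the difference within each letter. Tagln lies furthest to the left, at -1.41 and -1.35, and in every gene the point of letter C is the leftmost of the 3 letters.

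Cultures of the same treatment also differed. In 9 of 9 genes the log2 difference between DMSO cultures C and B was larger than the log2 fold change between treatments was in size. In DMSO, C was the highest culture in all 9 and B the lowest in 8. A range between single cultures is thus set beside a difference of means, and the share of all genes was not counted. In DMSO, culture C exceeded culture B 4.14-fold for Tagln, 3.19-fold for Cnn1, 2.33-fold for Myl9, 1.98-fold for Tpm1, 1.73-fold for Acta2, 1.59-fold for Cnn2, 1.35-fold for Acta1, 1.33-fold for Tagln2 and 1.22-fold for Tpm2. In MB-3 the ratio of C to B was smaller for each of them, at 2.997 for Tagln, 2.09 for Cnn1, 1.62 for Myl9, 1.46 for Tpm1, 1.44 for Cnn2, 1.33 for Acta2, 1.24 for Acta1, 1.20 for Tagln2 and 1.11 for Tpm2. Culture C was the highest in both groups in 9 of 9 genes, against 14.7% of all genes tested, and the whole order of B below A below C held in both groups in 7 of 9, against 6.06% of all genes. The exceptions were Tagln2, whose A and B changed places in MB-3, and Tpm2, in which A was the lowest in both groups.

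For these genes the MB-3 cultures were less spread than the DMSO cultures. The SD as a percentage of the mean was smaller in MB-3 in 9 of 9 genes (57.1% of all genes tested): for Tagln it was 68.5% in DMSO and 55.5% in MB-3, for Cnn1 60.7% and 37.3%, and for Tpm1 35.3% and 20.6%. Letter C, where the DMSO level was highest, had the most negative difference in 9 of 9 genes (34.3% of all genes), and letter B the least negative in 7. Over the 9 genes the median log2 difference was -0.40 in A, -0.26 in B and -0.67 in C. The smaller ratio of C to B in MB-3 and the more negative difference in C than in B are the same comparison. As the genes were selected for moving together, they are not separate observations, and these counts are a description.

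**Figure D3:**
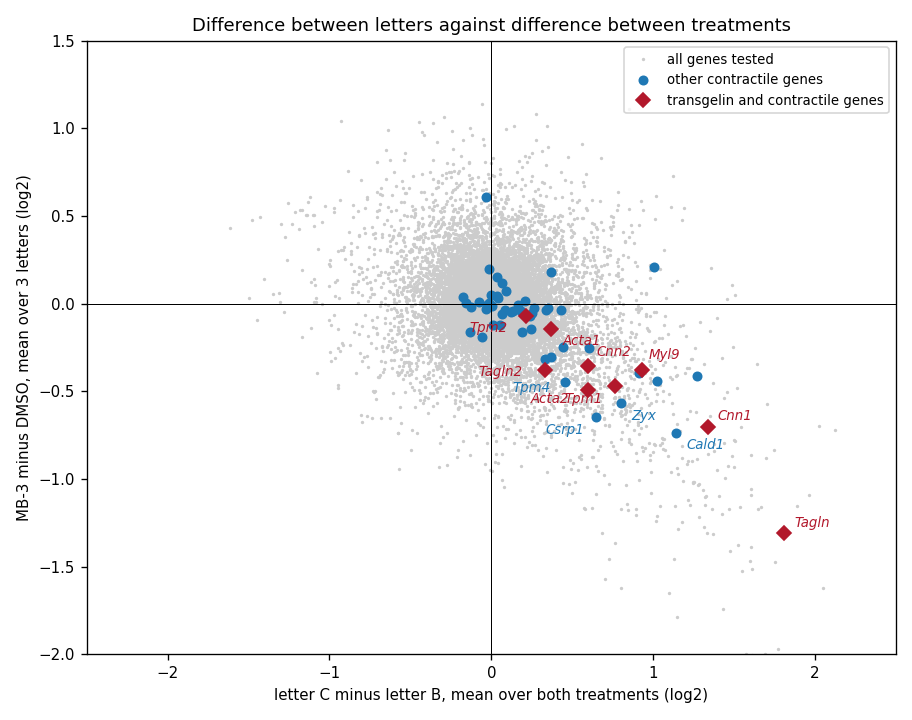
Each point is a gene, with the log2 difference between letters C and B (mean over both treatments) on the horizontal axis and that between MB-3 and DMSO (mean over 3 letters) on the vertical axis. Both differences come from the same 6 libraries, and 3 of the 20027 genes lie outside the axes. The red diamonds run from Tpm2 near the origin to Tagln at the lower right, and Cald1 is the labelled blue point nearest to Cnn1.

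The genes rose and fell with Tagln. Over the 6 libraries Pearson's r of log2(CPM + 0.1) with Tagln was 0.987 for Acta2, 0.983 for Tpm1, 0.979 for Cnn1, 0.970 for Cnn2, 0.950 for Myl9, 0.943 for Tagln2, 0.925 for Acta1 and 0.787 for Tpm2. Values of at least 0.9 were reached by 7 of these 8, against 3.73% of all genes, whose median r was -0.031. After the mean of each treatment was removed, 7 of 8 were still at 0.9 or more, against 4.97% of all genes. Among the 36 pairs of the 9 genes r ran from 0.743 (Acta2 with Tpm2) to 0.993 (Cnn1 with Tpm1), with a median of 0.951. The 6 points share libraries and normalisation, and the genes were selected for moving together, so these coefficients are a description.

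Outside the set, the genes most like Tagln among those with a mean of at least 5 CPM were Sema6a (r = 0.999), Krt8 (r = 0.999), Zyx (r = 0.999), Nes (r = 0.998) and Krt8-ps (r = 0.998). Krt8, a keratin of simple epithelia, had 62.7 CPM, 35.4 CPM and 121.8 CPM in DMSO A, B and C and 27.7 CPM, 17.2 CPM and 49.6 CPM in MB-3, the same order of cultures as Tagln. Krt8-ps is a pseudogene copy of Krt8, and how the counting split reads between a gene and its copy is not stated. Sema6a encodes a transmembrane semaphorin, Zyx the focal adhesion protein zyxin and Nes the intermediate filament protein nestin.

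Sums over marker lists of other cell types were set beside these values, and their part in the result was not tested. The sum of the simple epithelium markers (6 genes) followed the letters as Tagln did. In DMSO it was 221 CPM in B, 289 CPM in A and 425 CPM in C, and in MB-3 178 CPM, 204 CPM and 277 CPM. Krt7, Krt8, Krt18 and Krt19 each had this order in both groups, but Cdh3 and Cldn4 did not in DMSO. There Cdh3 stood at 33.3 CPM, 32.4 CPM and 32.6 CPM in A, B and C, and Cldn4 at 94.35 CPM, 100.2 CPM and 107.6 CPM. Of these 6 genes Krt8, Krt18 and Krt19 were lower and Cdh3 higher in MB-3 in the fit with the block, and Cdh3 was called with treatment only as well. Fibroblast markers (8 genes) summed to 8.06 to 10.8 CPM in DMSO and 6.72 to 6.92 CPM in MB-3, without overlap. Col1a1 and Col1a2 were lower under the block, with Col1a1 at only 0.25 to 1.24 CPM over the libraries. None of the 8 was at 0 in every library, but 4 were under 1 CPM in all of them. The smooth muscle list, which shares Actg2 with the genes described here, had 0 of its 6 tested genes called and ranges of 39.9 to 45.6 CPM and 40.9 to 43.0 CPM, which overlapped. Extraembryonic endoderm markers gave 93.2 to 125.5 CPM and 89.5 to 116 CPM, with Col4a1 lower under the block. Of the ES cell list only Utf1 (higher) was called under the block, and of the skeletal and cardiac muscle list, at 13.8 to 16.9 and 15.6 to 17.8 CPM, only Ryr2 (higher).

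The wider contractile machinery was examined with 49 other genes of the actin cytoskeleton and the SRF pathway, of which 48 passed the filter. In the fit with treatment only, 0 were called by edgeR and 0 by DESeq2. In edgeR 10 had an unadjusted p under 0.05, and the share of all genes under it was not counted. With the block, 11 of the 48 were lower and 1 was higher (background 3.9% and 3.22% of all genes). Without DMSO B the fit with treatment only called 6, where 2.55% of all genes were called. Without letter C in both groups the blocked fit called 6 in place of 12, where 5.15% of all genes were called. The median log2 fold change of the 48 was -0.04, against -0.45 for the 9 genes above. Those 9 genes were selected on this contrast, so the gap between the medians is a description only. In 15 of the 48 all 3 letters were below DMSO (20.3% of all genes), and in 4 the groups did not overlap with MB-3 lower (7.37% of all genes). The order B, A, C held in both groups in 13 of the 48 (6.06% of all genes).

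Among cross-linkers and anchors, 6 of 17 were lower under the block. The furthest was Cald1, which encodes caldesmon, an actin- and tropomyosin-binding regulator of contraction. It had 76.6 CPM, 44.6 CPM and 118 CPM in DMSO A, B and C and 42.5 CPM, 33.4 CPM and 61.4 CPM in MB-3, with a blocked log2 fold change of -0.75 (SE 0.06, adjusted p = 8.20e-10). Csrp1, a LIM protein of actin filaments, followed with -0.65 (SE 0.06, adjusted p = 7.80e-09), and Zyx with -0.57 (SE 0.06, adjusted p = 3.65e-08). Smaller falls were those of the LIM proteins Fhl1 (-0.31) and Pdlim7 (-0.25), with blocked adjusted p-values of 8.21e-04 and 0.00299. Filamin A, vinculin, talin and the alpha-actinins Actn1 and Actn4 were not called in either fit.

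The tropomyosin Tpm4 was lower, at -0.45 (SE 0.06, adjusted p = 2.51e-06), while Tpm3 was not called. Of 9 genes for myosin II and the enzymes that act on its light chain, 1 passed under the block, Myl12a, at -0.16 (SE 0.04, adjusted p = 0.0208). Myl12a overlaps another gene model, also annotated as Myl12b, on its own strand over 13.8% of its exons. The actin monomer and severing proteins Tmsb4x and Dstn were lower by -0.19 and -0.14 (adjusted p = 0.0099 and 0.0421). Rhob, which encodes a small GTPase, was lower at -0.32 (adjusted p = 0.0049), and the formin Diaph1, which nucleates actin filaments, was the gene called higher, at 0.20 (SE 0.05, adjusted p = 0.0055). None of these differences passed in the fit with treatment only. Without letter C in both groups the blocked calls of Myl12a, Pdlim7, Tmsb4x, Dstn, Rhob and Diaph1 were lost, without letter A those of Myl12a and Dstn, and in DESeq2 with the block those of Dstn and Rhob.

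Srf, Mrtfa and Mrtfb, the 3 transcriptional regulators tested here, were not called in either fit. Srf was at 33.1 CPM, 31.9 CPM and 40.2 CPM in DMSO A, B and C and at 33.7 CPM, 30.5 CPM and 39.3 CPM in MB-3, a log2 fold change of -0.03 (SE 0.05 under the block). Srf was thus also highest in culture C, though far less so than Tagln. Its coactivators Mrtfa and Mrtfb had blocked log2 fold changes of 0.12 (SE 0.06) and 0.15 (SE 0.07). Myocd, the coactivator of smooth muscle, was below the filter.

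**Figure D4:**
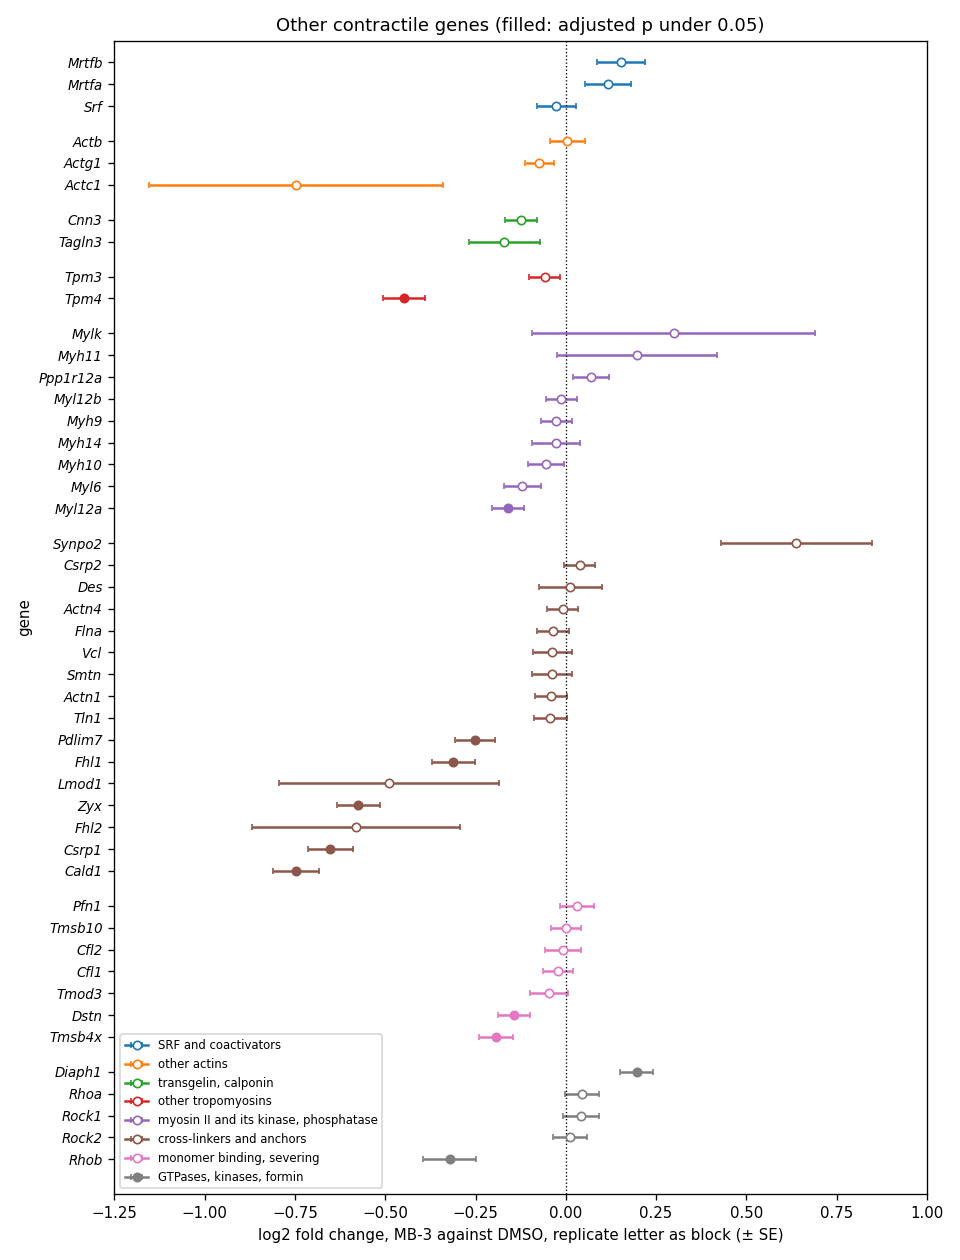
Log2 fold change ± SE of MB-3 against DMSO under the replicate block (horizontal axis) for 47 of the 48 other contractile genes, coloured by role, with filled points for an adjusted p under 0.05. The filled points are 10 to the left of 0, with Cald1 and Csrp1 the furthest, and Diaph1 to the right.

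For H3K9ac, the peaks that the study's annotation assigns to a gene were used as far as they were at hand, 1999 of 11724 DMSO peaks and 1999 of 4673 MB-3 peaks. Among these, 1 gene of the 10 was named as nearest gene: Cnn2, for a DMSO peak at chr10:79450782-79451772 on mm9. At 991 bp it was wider than 86.8% of the peaks in the DMSO list, whose median width is 528 bp. It overlapped no peak of the MB-3 list by a single base, and the nearest one lay 27251 bp away. The MB-3 list is much the shorter of the lists, so many DMSO peaks can lack an overlap. Their share was not counted here, so the missing overlap is not shown to be particular to Cnn2. Each list comes from merged duplicates and carries no height, so neither list has a measured error. Peaks at the other 9 genes were not analysed here.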

How the data were processed

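The analysis used 6 RNA-seq libraries, 3 per treatment, grouped by their labels, and 2 H3K9ac peak lists. Single-end reads had been trimmed, mapped by the authors with Bowtie (mm10) and assigned to exonic regions with GenomicAlignments; the deposited values are unnormalised counts for each Ensembl gene. Versions, annotation release and use of strand are not given in the sources used here. ChIP-seq duplicates had been mapped with BWA (mm9) and merged, and MACS2 was run by the authors with input as control; the deposited lists give peak positions alone.

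Symbols (30540 of 30677 identifiers), positions and exon lengths came from GENCODE M21 on GRCm38. Counts were fitted with edgeR 4.0.16 in R 4.3.3: filterByExpr (20027 genes kept), TMM, glmQLFit and glmQLFTest with treatment only, and Benjamini-Hochberg adjustment over all genes tested (threshold 0.05). The SE of a log2 fold change is its size divided by the square root of the F statistic of that test. Tables and plots were made with Python 3.11.15, pandas 2.3.3 and matplotlib 3.10.9. Group values are mean ± SD over 3 libraries. Nothing states that the triplicates were separate experiments, so p-values concern only the spread between these samples. The test also moderates each gene's spread with that of the other genes, so a p-value does not rest on that gene's own libraries alone. Deviations from the group means correlated between DMSO and MB-3 libraries of the same letter (r = 0.115, 0.287 and 0.232 for A, B and C over 20027 genes). All other pairings were below 0, but deviations within a group sum to 0, so this adds no further evidence of pairing. On the same-letter values the letters were taken to pair the samples, and blocked values are given. An exact permutation test of 3 against 3 cannot go below p = 0.1 and was not used. Fits were tested on simulated data that held a treatment effect but no difference between letters. That test therefore does not cover the differences between letters described above. Alternatives were the block, RLE and upper quartile normalisation, other filters, DESeq2 1.42.0 and leaving out libraries.

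The genes and lists were chosen with earlier results of these data known. The text names all 10 genes, the other contractile genes called under the block (12 at most, of which 1 is not reported here), the 5 non-members most like Tagln and the marker lists. Promoters came from RefSeq. Columns not used: 0. Rows naming no gene: 0.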

Additional observations from a re-analysis of the deposited data

How the results depend on the processing

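The median log2 fold change of the 9 genes stayed between -0.46 and -0.40 under the replicate block, RLE and upper quartile normalisation, both other filters and DESeq2. With single libraries or single letters left out it ran from -0.691 to -0.198, the extremes being without DMSO B and without DMSO C. Tpm2 changed sign only without DMSO C, at 0.033 in a range that began at -0.136. The number of the 9 genes called was 0 in the fit with treatment only, 7 with the replicate block, 2 without a filter on low counts (Tagln and Tagln2), 1 in DESeq2, 6 in DESeq2 with the replicate block, and 0 to 7 with libraries or letters left out. For the 48 other contractile genes it was 0, 12 with the replicate block, 2 without a filter, 9 in DESeq2 with the replicate block, and 0 to 13 with libraries or letters left out. Over all genes tested the block called 1425 (7.115%) and treatment only 41 (0.205%). The shares were 0.632% without a filter, 1.04% in DESeq2 and 3.36% in DESeq2 with the block. With 1 library left out they ran from 0% to 2.55%, the highest being 520 genes without DMSO B. Under the block with 1 letter left out in both groups, 6, 7 and 6 of the 9 genes were called without A, B and C. The shares of all genes called there were 4.71%, 4.505% and 5.15%. DESeq2 with the block and the fits without a letter were chosen after the data were seen. The median r with Tagln was 0.960 on both log scales and 0.971 after group means were removed. The cause of these shifts was not tested. With 3 libraries per group and 1 to 5 counts per library, no difference in Actg2 was detectable.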
